A study of Mus musculus with 2 samples.

Results

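Among 5888 kept barcodes from 2 single-cell RNA libraries of mouse blood progenitors, 84 held *Id2* together with transcripts of innate lymphoid cells (1.43%, 95% exact binomial interval 1.14 to 1.76). A barcode, which tags the RNA of 1 droplet, was kept when it held 1500 UMIs or more (unique molecular identifiers, each standing for 1 captured RNA molecule) from 500 genes or more, with no more than 10% of the UMIs from mitochondrial genes. A kept barcode was a member of the *Id2* gate with at least 3 UMIs of *Id2* and at least 1 UMI summed over *Rora*, *Klrd1*, *Ncr1*, *Gzmc* and *Il22*, with at most 1 UMI of *Lmo2* and *Mef2c* together and fewer than 10 of the granule genes *Elane*, *Ctsg*, *Prtn3*, *Ms4a3*, *Lyz2* and *S100a8*. Of the kept barcodes 217 in FL001 and 239 in FL002 had at least 3 *Id2* UMIs, 47 and 49 of these also had a UMI of the summed genes, and the progenitor genes left out 6 of these in either library, 1 of which in FL001 was over the granule limit too. The gate thus took 41 of 1788 kept barcodes in library FL001 (2.29%, 1.65 to 3.10) and 43 of 4100 in FL002 (1.05%, 0.760 to 1.41). Both shares lie outside the interval of the pooled share, which takes all barcodes as 1 sample and does not cover the spread between libraries. The members were thus chosen by their measured UMIs of the gate genes, so all values below are a description of the gated barcodes, with no test, and the gate genes are not findings.

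Both libraries carried the same labels. The cells were wild-type CD1 hematopoietic stem and progenitor cells, taken at E13.5 from fetal liver depleted of TER-119 cells, sorted as Sca-1+ cKit+ and seeded at 1000 per well on plates coated with the Notch ligand DL4 at 10 µg/mL and with VCAM-1 at 2.32 µg/mL, conditions that support T-cell development. Cells were captured after sorting or after culture, and which time points each library pooled is not given in the sources used here, so time cannot be told apart from library. FL001 held 16320118 UMIs and FL002 held 22651783. With 1 group of 2 libraries there was no condition to compare, and each library is given on its own.

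*Id2* encodes an inhibitor of E proteins, the transcription factors that drive T and B lymphocyte development, and it is required for innate lymphoid cells. This family holds natural killer (NK) cells and ILC1, known for cytotoxic granules and interferon, ILC2, known for *Il5* and *Il13*, and ILC3 with the lymphoid tissue inducer (LTi) cells of the fetus, known for *Il22*, *Il17a* and *Il17f*. Innate lymphoid cells and T cells arise from shared lymphoid progenitors in the fetal liver and thymus, and many of their transcripts, among them *Tcf7*, *Gata3* and unrearranged T-cell receptor constant regions, are found in both.

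The name innate lymphoid-like described only some of the gated barcodes. *Cd3g*, a chain of the T-cell receptor complex, reached 3 UMIs in 28 of 41 members of FL001 (68.3%) and 22 of 43 of FL002 (51.2%), beside 54.0% and 54.3% of the other kept barcodes. Innate lymphoid cells lack the surface receptor complex that this chain is part of. *Rora* was the only one of the 5 summed genes in 16 and 19 members. Of 24 NK and ILC1 genes 5 had 0 UMIs in the members of both libraries, among them *Eomes*, *Prf1* (perforin) and *Ifng* (interferon gamma), while others of the list, such as *Gzmb* and *Xcl1*, were among the highest folds given below. Also at 0 were the ILC2 cytokines *Il5* and *Il13* and the ILC2 receptor *Il1rl1*. A count of 0 allows up to 11.0 CPM (UMIs per 1000000) in the FL001 members and 15.1 CPM in the FL002 members (3 counts of each library's member total). The barcodes are therefore called members of the *Id2* gate, and the sets within them by the genes that define them.

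Members were shallower than the rest. Their median depth was 5133 UMIs in FL001 and 4050 in FL002, against 7771 and 4759 in the other kept barcodes, while after thinning each barcode to 1500 UMIs the median number of genes was 887 and 876 in members and 878 and 861 in the others. The median mitochondrial share was 3.97% and 3.64% in members and 3.59% in the others of either library. Doublets were not removed: the caller used (Scrublet) marked only 0.391% and 0.0732% of the kept barcodes, which is too few for it to have worked, and it marked 0 members. The median member stood at percentile 75.9 of the doublet scores of the kept barcodes in FL001 and 70.3 in FL002, and 7 FL001 members and 0 FL002 members were among the highest 5%. UMIs of *Xist* together with a Y-linked gene, which single embryos do not combine, were found in 1 member of each library and in 3.61% and 2.56% of the other kept barcodes. Without the highest 5% of scores 59 of the 65 genes given below as higher than in the other kept barcodes and 53 of the 62 higher than in *Cd3g* barcodes were still so. The libraries shared 10 kept barcodes, of which 0 in FL001 and 1 in FL002 were members.

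The gate genes show what was selected. *Id2* ran from 3 to 27 UMIs in a member of FL001 (median 6) and from 3 to 15 in FL002 (median 5), and summed over members stood at 1291 CPM and 1249 CPM. *Gzmc*, a granule protease, reached 552 and 569 CPM, but in 10 members of each library. *Il22*, a cytokine acting on epithelia, reached 379 and 423 CPM in 13 and 8 members. *Klrd1*, a lectin-like receptor subunit (CD94) of NK cells, was found in 12 and 11 members and *Ncr1*, the activating receptor NKp46, in 3 and 9. *Rora*, a nuclear receptor needed by ILC2 and present in other innate lymphoid cells, was the most widespread of the 5, in 27 and 28 members.

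Against all other kept barcodes 65 of 3195 genes were at least 2-fold higher in members in both libraries (2.03%) and 21 were at least 2-fold lower (0.657%). Each level is the CPM of UMIs summed over the barcodes of a group in 1 library, with a 95% exact Poisson interval in parentheses that covers counting error only, a fold has 20 CPM added to both levels, and a gene was counted where it reached 50 CPM in members or in the comparison group in each library, gate genes left out. A gene that reached that level only in members had to stand above the comparison group, though not always 2-fold, so the counts are a description only. Within 1 library, 133 of 3522 genes were higher in FL001 (3.78%) and 113 of 3523 in FL002 (3.21%), and 69 (1.96%) and 42 (1.19%) were lower. No test was run, since every gene of a gated barcode counts as used by the gate.

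*Lgals3*, which encodes the sugar-binding lectin galectin-3, had the largest fold by the lower of both libraries. *Lgals3* stood at 1641 CPM in the FL001 members (1492 to 1800.2) and 685 CPM in the FL002 members (575 to 810.4), against 15.5 and 4.69 CPM in the other kept barcodes. That is 46.8-fold and 28.6-fold. It was found in 31 and 20 members, or 75.6% and 46.5%, against 3.21% and 1.23% of the deeper other barcodes, and thinned to 1500 UMIs the shares were 63.4% and 39.5% against 1.26% and 0.666%. Free RNA, read from droplets of 1 to 100 UMIs, held *Lgals3* at 40.8 and 23.1 CPM. *Gzmb* stood at 1287 CPM in the FL001 members (1156 to 1429.7) and 1033 CPM in the FL002 members (896 to 1184), against 61.1 and 61.2 CPM in the other kept barcodes. *Gzmb* is granzyme B, a cytotoxic granule protease, and its UMIs were spread over 22 and 17 members, 1 of which held 79 of the 205 UMIs of FL002. Both genes lie on chromosome 14.

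Chemokine receptors and chemokines were among the 15 largest folds. *Cxcr6* stood at 239 CPM in the FL001 members (185 to 305) and 247 CPM in the FL002 members (183 to 326), against 0.741 and 0.142 CPM in the other kept barcodes. *Cxcr6* guides lymphocytes to CXCL16 and is a mark of innate lymphoid progenitors, and it was found in 19 and 15 members but in only 0.401% and 0.0739% of the others. *Ccr2* stood at 346 CPM in the FL001 members (279 to 423) and 448 CPM in the FL002 members (360.1 to 552), against 13.8 and 7.63 CPM in the other kept barcodes. *Ccr2* is the receptor for CCL2. *Xcl1* stood at 154 CPM in the FL001 members (111 to 209) and 212 CPM in the FL002 members (152 to 286), against 0.135 and 2.80 CPM in the other kept barcodes. *Xcl1*, the chemokine lymphotactin, is made by NK cells and activated T cells, and here it was held by 11 and 7 members. *Ccl5* stood at 99.3 CPM in the FL001 members (65.5 to 145) and 368 CPM in the FL002 members (288 to 462), against 2.96 and 2.37 CPM in the other kept barcodes. For *Ccl5* a single barcode decided the value, with 26 of 27 UMIs in FL001 and 51 of 73 in FL002, and the gene was no longer 2-fold higher in both libraries once the top barcode of each was left out.

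The rest of the 15 largest folds included *Cd7* and *Asb2*. *Cd7* stood at 802 CPM in the FL001 members (699 to 916) and 499 CPM in the FL002 members (405 to 607), against 49.8 and 32.0 CPM in the other kept barcodes. CD7 is an early lymphoid surface protein of NK and T cells, present in 30 and 22 members. *Asb2* stood at 261 CPM in the FL001 members (204 to 329) and 212 CPM in the FL002 members (152 to 286), against 1.89 and 1.56 CPM in the other kept barcodes. *Asb2* encodes a subunit of a ubiquitin ligase and is a known Notch target. The folds of *Cd52*, a lymphocyte surface glycoprotein, were 6.43 and 5.11, and those of *Tnfrsf9*, the costimulatory receptor 4-1BB, were 7.03 and 5.02. *Serpine2*, a secreted protease inhibitor, stood at 9.02-fold and 5.27-fold. *Rasl11a*, *Cited4* and *Batf3*, which encode a small GTPase, a transcriptional coactivator and an AP-1 family factor of dendritic and other immune cells, ran from 4.07-fold (*Batf3*, FL002) to 8.36-fold (*Rasl11a*, FL001). *Pdzk1*, at 4.83-fold and 4.76-fold, overlaps on the opposite strand the start of *Cd160*, a receptor of NK cells that was also among the 65. *Cxcr6*, *Xcl1*, *Cd52* and *Tnfrsf9* overlap *Fyco1*, *Gm20743*, *Crybg2* and *Camta1* in the annotation, and whether counting used the strand is not given in the sources used here.

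**Figure D1:**
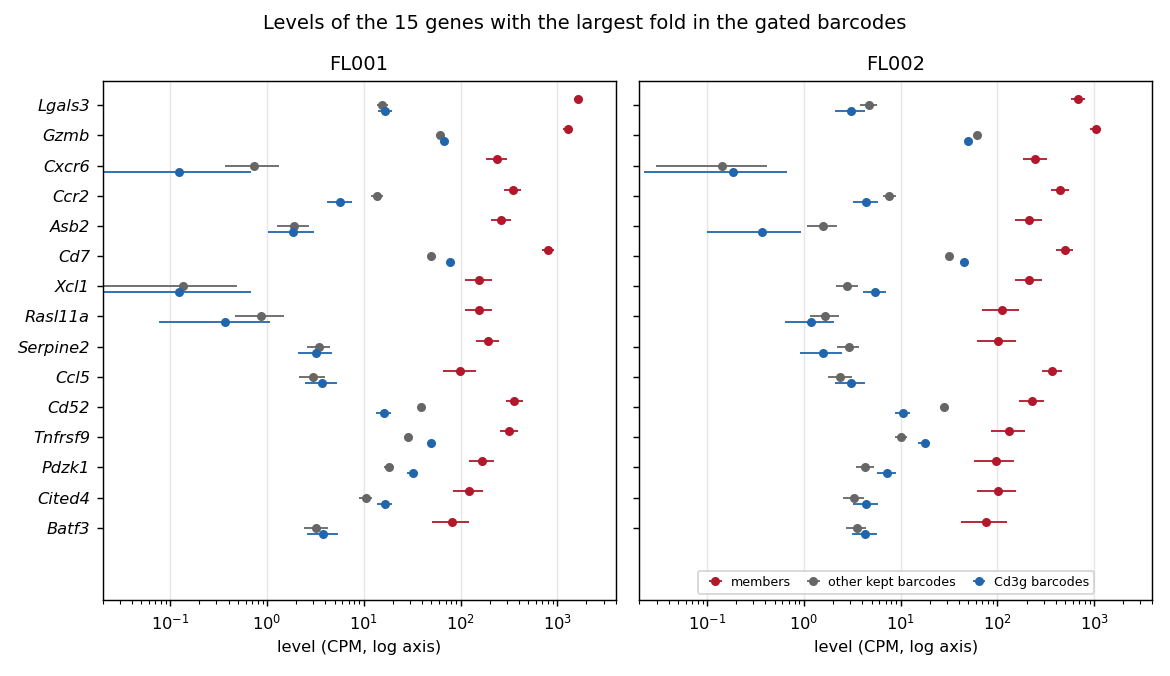
Levels in CPM (log axis) of the 15 genes with the largest fold in members of the *Id2* gate, for FL001 and FL002, in members (red), other kept barcodes (grey) and *Cd3g* barcodes (blue); bars are 95% exact Poisson intervals, cut at the left edge of the axis. In either library each red point lies to the right of the grey and blue ones, from *Lgals3* at the top to *Batf3* at the bottom.

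Promoters of *Gzmb*, *Cxcr6* and *Xcl1* are shown because these genes are among the largest folds and their windows held a motif match. The 250 bases before the RefSeq start of each gene were taken from RefSeq (GRCm38.p6, 5′ to 3′ on the strand of the gene) and searched on both strands for 4 motifs of lymphoid factors: the E-box core CAGCTG, the RUNX core TGTGGT, the ROR element AGGTCA and the AP-1 site TGANTCA. Capitals mark a match, which on the other strand reads ACCACA for RUNX. *Gzmb* (chr14:56262335-56262584, minus strand) held the RUNX core 93 and 34 bases and the AP-1 site 58 bases before its start, *Cxcr6* (chr9:123806227-123806476, plus strand) held the RUNX core 10 bases before and *Xcl1* (chr1:164935523-164935772, minus strand) 227 bases before it, and the *Lgals3* window (chr14:47373610-47373859, plus strand) held none of the 4.
Gzmb: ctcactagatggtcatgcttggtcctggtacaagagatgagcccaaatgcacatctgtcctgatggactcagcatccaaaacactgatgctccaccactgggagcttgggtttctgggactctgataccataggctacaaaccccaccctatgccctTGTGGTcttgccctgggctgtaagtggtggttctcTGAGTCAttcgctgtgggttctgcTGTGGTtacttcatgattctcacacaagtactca
Cxcr6: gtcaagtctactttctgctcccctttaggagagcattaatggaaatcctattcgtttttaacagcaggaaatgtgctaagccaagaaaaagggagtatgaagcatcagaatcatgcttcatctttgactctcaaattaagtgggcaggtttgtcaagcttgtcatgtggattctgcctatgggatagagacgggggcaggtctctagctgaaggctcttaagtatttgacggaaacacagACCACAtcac
Xcl1: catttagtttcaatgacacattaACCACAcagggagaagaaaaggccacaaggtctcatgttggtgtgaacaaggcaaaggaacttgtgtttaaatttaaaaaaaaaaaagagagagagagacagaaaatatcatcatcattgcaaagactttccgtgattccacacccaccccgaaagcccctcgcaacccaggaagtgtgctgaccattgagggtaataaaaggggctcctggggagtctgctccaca
Of the 65 higher genes, 53 had RefSeq windows, 70 in all. The RUNX core was in 25.7% of these windows and in 14% of all 32851, the E-box core in 18.6% and 13%, the ROR element in 10.0% and 14%, and the AP-1 site in 5.71% and 6.75%. The matches are letters in a window and say nothing of a factor's binding.

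Genes of other blood lineages and of progenitors were the lowest in members. The gate itself used granule and progenitor genes, and its part in these values was not tested. *Mpo*, the granule enzyme of neutrophil precursors, stood at 3.68 and 25.2 CPM in members against 376 and 274 CPM in the others. *S100a9*, a neutrophil calcium-binding protein, had 0 UMIs in members and was at least 26.7-fold lower in FL001 and at least 5.04-fold lower in FL002, and the platelet chemokine *Pf4*, also at 0, stood at 149 and 58.1 CPM in the others (bounds are against 3 counts in the members of a library). These bounds would be smaller against the upper ends of the 95% intervals, 13.6 and 18.6 CPM. *Cd34*, a surface protein of progenitors, stood at 7.36 and 10.1 CPM against 94.8 and 86.1 CPM. *Ramp1*, a partner of the calcitonin-like receptors, was 4.61-fold and 3.0-fold lower and *Vamp5*, a membrane fusion protein, 4.65-fold and 2.69-fold. The remaining *Nme4*, *Egfl7*, *Lst1* and *Ogfrl1* were 2.36-fold to 4.03-fold lower. Low levels of several of these genes were shared with the *Cd3g* barcodes compared below. There *Mpo* stood at 41.7 and 60.5 CPM, *S100a9* at 2.94 and 2.20, *Pf4* at 0.978 and 1.10 and *Cd34* at 18.0 and 16.5. These genes were under the level minimum of that comparison, while *Ramp1* and *Vamp5* were lower in it too.

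The comparison with *Cd3g* barcodes asks where members differed from T-lineage cells. These were kept barcodes with at least 3 *Cd3g* UMIs that were not members, 944 in FL001 and 2203 in FL002. Here 62 of 3147 genes were at least 2-fold higher in members in both libraries (1.97%) and 18 were lower (0.572%). Within 1 library, 130 (3.73%) and 115 (3.28%) were higher and 60 (1.72%) and 47 (1.34%) lower. The *Cd3g* barcodes are part of the other kept barcodes, so the comparisons share samples and are given side by side. *Lgals3* stood at 16.6 and 3.03 CPM in *Cd3g* barcodes, a fold of 45.3 and 30.6. The next largest folds belonged to *Gzmb* (14.9 and 15) and *Ccr2* (14.3 and 19.2), followed by *Cxcr6*, *Asb2*, *Xcl1*, *Cd52*, *Cd7*, *Rasl11a* and *Serpine2*, which had appeared in the first comparison too.

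Genes lower than in *Cd3g* barcodes included *Myb*, *Cd3d*, *Cd24a* and *Ctla4*. *Myb*, a transcription factor of immature blood cells and thymocytes, stood at 80.9 and 85.6 CPM in members and 235 and 269 CPM in *Cd3g* barcodes. *Cd3d*, a further chain of the T-cell receptor complex, was 2.02-fold and 2.35-fold lower, beside a gate for the comparison group that used *Cd3g*. *Cd24a*, a surface protein of immature lymphocytes, was 2.38-fold and 2.34-fold lower, and *Ctla4*, an inhibitory receptor, 3.41-fold and 2.53-fold. *2300002M23Rik*, *Mpzl2*, *Khdc1a*, *Ptp4a3*, *Ramp1* and *Vamp5* were also among the 10 largest folds down. *Bcl11b*, the factor that fixes T-cell identity, was under the level minimum in FL002 and is given as values: 18.4 and 0 CPM in members and 59.4 and 42.1 CPM in *Cd3g* barcodes.

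Gene lists of the lymphoid lineages were read against the background of 2.03% higher and 0.657% lower, with a median fold of 0.984 over all genes. The lists were chosen with earlier results of these data known. Several listed genes, named below, were counted only through their level in members, so the counts and median folds of the lists are a description only. Of 24 NK and ILC1 genes, 8 reached the level minimum, 5 of them higher (*Gzmb*, *Cd7*, *Xcl1*, *Ccl5* and *Fcer1g*, an adaptor of activating receptors) and 0 lower, with a median fold of 6.11. *Klrb1c*, the NK receptor NK1.1, stayed under the minimum in FL001 at 47.8 CPM and stood at 70.5 CPM in FL002, against 0.337 and 0.190 CPM in the others. *Nkg7* and *Tyrobp* were counted and stood below 2-fold in both libraries, at 1.61-fold and 1.87-fold and at 1.61-fold and 1.41-fold. *Tbx21*, the factor T-bet of ILC1 and NK cells, was at 3.68 and 10.1 CPM, 1 and 2 members. Of 20 ILC3 and LTi genes, 8 reached the minimum and 5 were higher, namely *Cxcr6*, *Il17f* (interleukin 17F), *Ltb* (lymphotoxin beta), the aryl hydrocarbon receptor *Ahr* and the interleukin 7 receptor *Il7r*, with a median fold of 3.0. *Il17a* had 0 UMIs in members.

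The other lymphoid lists follow, with no test of a difference between lists. Some listed genes reached 50 CPM in members but not in the other kept barcodes of either library. Among them were *Cd7*, *Xcl1*, *Ccl5*, *Cxcr6*, *Il17f*, *Ahr*, *Il7r*, *Lmo4*, *Tox* and *Itgb7*. Such genes had to stand above the others, though not always 2-fold. Of the ILC2 genes, 3 of 16 were counted and only *Lmo4*, a LIM-domain regulator, was higher (3.78-fold and 3.92-fold), while *Gata3* stood at 1.89-fold and 1.23-fold. Among factors of the innate lymphoid precursor, 2 of 8 counted genes were higher, the nuclear factor *Tox* (2.43-fold and 3.24-fold) and the integrin *Itgb7* (3.57-fold and 4.30-fold). *Zbtb16*, the precursor factor PLZF, stood at 73.6 and 65.5 CPM in members and 30.4 and 28.5 CPM in the others, and *Runx3* at 2.13-fold and 1.5-fold, past 2-fold in FL001 only. In the T lineage list 2 of 13 counted genes were higher against the others, the factor *Lef1* and the receptor constant region *Trbc1*, both no longer so without the top barcode, and against *Cd3g* barcodes 0 of 12 were higher and 1, *Cd3d*, lower. The listed Notch targets (7 counted, *Asb2* not among them), gamma-delta T genes (4) and E and Id proteins other than *Id2* (3) had 0 genes past 2-fold in either comparison. The partners of *Id2*, *Tcf3* and *Tcf12*, stood at 0.743-fold and 1.05-fold and at 0.785-fold and 1.60-fold. Against *Cd3g* barcodes, where 1.97% of all genes were higher and the median fold was 0.986, the counts were 4 of 8 for NK and ILC1, 5 of 8 for ILC3 and LTi, 1 of 3 for ILC2 and 2 of 8 for the precursor factors. Without the top barcode *Ccl5* of the first of these lists and *Il17f* and *Il7r* of the second were no longer higher than in *Cd3g* barcodes. Near copies share reads in the *Trbc*, *Tcrg*, *Gzm* and *Klr* families and between *Il22* and *Iltifb*, so the split of counts within them is uncertain.

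Receptors and effectors were the other lists with several higher genes. Of 5 counted cytokine receptors 3 were higher, *Cxcr6*, *Il7r* and *Il2rg*, the shared gamma chain, and of 6 counted effector genes 5 were, *Gzmb*, *Xcl1*, *Ccl5*, *Ltb* and *Il17f*. Without the top barcode *Il17f*, *Il2rg* and *Ccl5* were no longer 2-fold higher in both libraries. *Gzma*, granzyme A, was abundant in both groups, at 6312 and 2388 CPM in members and 3511 and 2309 CPM in the others, and free RNA held it at 3922 and 2141 CPM. Dividing-cell genes did not reach 2-fold: 0 of 13 counted S phase and mitosis genes were higher or lower in both libraries against the others, with a median fold of 1.33, and *Ube2c*, a mitotic ubiquitin enzyme, stood at 2.02-fold and 1.98-fold and was higher against *Cd3g* barcodes, though not without the top barcode.

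Summed levels of the marker lists of other cell types were lower in members than in all other kept barcodes for the myeloid, megakaryocyte and erythroid and progenitor genes, and not for the mast cell, dendritic and B lineage genes. Outside the 6 granule genes of the gate, 8 granulocyte and monocyte genes summed to 88.3 and 136 CPM in members and 733 and 395 CPM in the others, with the Fc receptor *Fcgr3*, shared with NK cells, the most abundant in members. Against *Cd3g* barcodes, at 56.0 and 76.3 CPM, this sum was higher in members, and *Fcgr3*, the only gene counted there, was higher, though not without the top barcode. Of these 8, *S100a9*, *Csf1r* and *Cebpa* had 0 UMIs in members, and of the 3 counted against the other kept barcodes *Mpo* and *S100a9* were lower while *Fcgr3* was higher, though not without the top barcode. The 13 megakaryocyte and erythroid genes summed to 40.5 and 5.04 CPM in members and 422 and 104 CPM in the others, with 10 at 0 and *Pf4* lower. In *Cd3g* barcodes they summed to 47.8 and 33.0 CPM, and the progenitor genes outside the gate to 418 and 469 CPM. Progenitor genes had 0 higher and 3 of 6 lower (*Cd34*, *Lyl1* and *Hhex*), and the 13 outside the gate summed to 261 and 408 CPM in members and 725 and 756 CPM in the others, with *Kit* the most abundant. The 14 dendritic genes summed to 191 and 307 CPM in members and 174 and 284 CPM in the others, with *Bst2* the most abundant, 6 were at 0, among them *Siglech*, *Xcr1*, *Clec9a* and *Zbtb46*, and of the 2 counted *Batf3* was higher. The 12 mast cell and basophil genes summed to 246 and 398 CPM in members and 176 and 179.5 CPM in the others, and the FL001 sum was 152 CPM, below the others, without 1 barcode that held 27 of the 67 UMIs. Of the 12 genes 7 were at 0, and the 2 counted did not reach 2-fold in both libraries, although *Cpa3*, a mast cell protease also found in early T-lineage cells, stood at 2.42-fold in FL002. The 10 B lineage genes summed to 114 and 121 CPM in members and 113 and 104 CPM in the others, 5 were at 0, among them *Pax5*, and *Ighm* was the only one counted, at neither higher nor lower. Without the top barcode of each library the B lineage sum was 97.5 and 102 CPM, below the others in both. The dendritic sum was then 187 and 281 CPM, below the others in FL002 only. The part of these lists in the results was not tested.

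**Figure D2:**
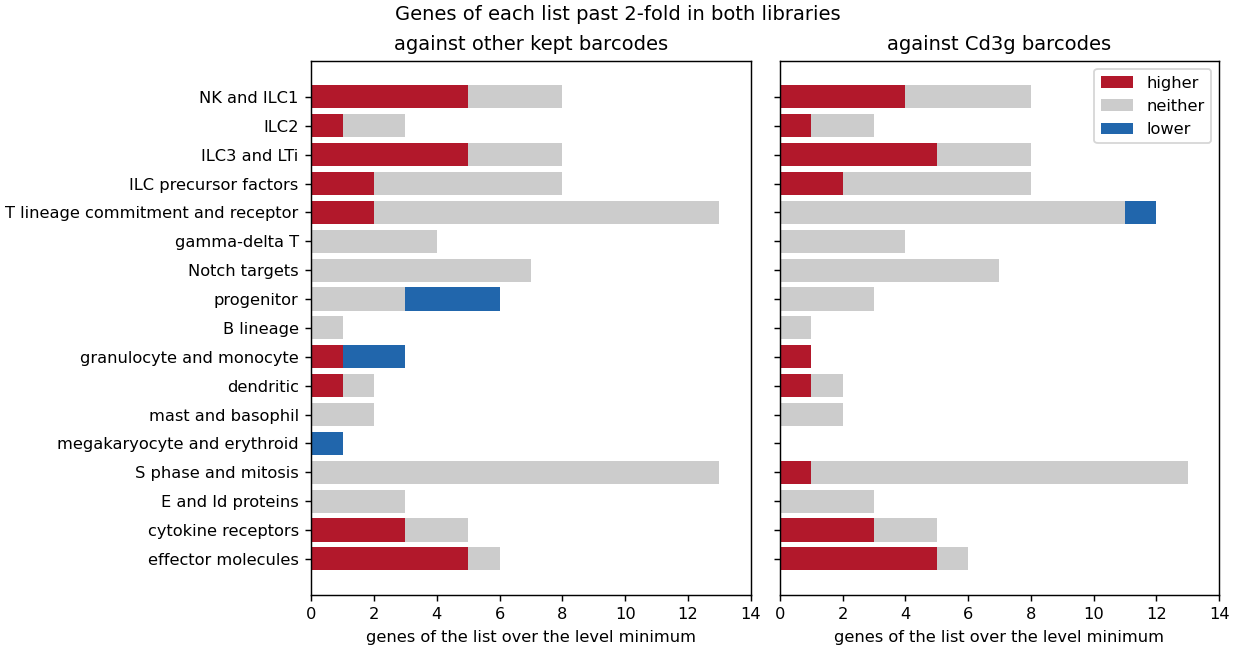
Number of genes in each of 17 lists that were at least 2-fold higher (red), at least 2-fold lower (blue) or neither (grey) in members in both libraries, against the other kept barcodes (left) and the *Cd3g* barcodes (right), out of the genes that reached 50 CPM. Red bars reach 5 genes for NK and ILC1, for ILC3 and LTi and for effector molecules on the left, and blue bars 3 genes for progenitors.

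The members fell into 3 sets by the summed gate genes. Barcodes with *Il22* were 13 of 41 in FL001 and 8 of 43 in FL002. A further 12 and 16 held *Klrd1*, *Ncr1* or *Gzmc* without *Il22*, and 16 and 19 held *Rora* alone. *Il22* and *Klrd1* were found together in 0 members of either library, although 13 and 12 members of FL001 and 8 and 11 of FL002 held one or the other. *Gzmc* lay mainly with *Il22*, in 9 of 13 *Il22* members of FL001 with 149 of its 150 UMIs and in 6 of 8 of FL002 with 65 of 113. *Klrd1* overlapped *Ncr1* in 3 members of FL001, all those with *Ncr1*, and in 5 of the 9 of FL002. As the sets are made from gate genes they get no test, and the genes below were chosen for description after their values were seen.

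*Il22* members were low in *Cd3g*, *Cd3d* and *Trbc1*. *Id2*, a gate gene, was 14.6 to 58.5 UMIs per 10000 in FL001 (median 34.4) and 26.6 to 85.6 in FL002 (median 42.6), beside medians of 11.8 and 16.3 in the members with *Klrd1*, *Ncr1* or *Gzmc* and no *Il22*, whose highest FL001 value was 59.1, and of 6.99 and 6.50 in the *Rora*-alone members. As raw UMIs the medians were 12 and 10.5 in *Il22* members and 5 and 3 in *Rora*-alone members. The *Id2* share of FL002 did not overlap between the *Il22* and the *Rora*-alone members, and that of FL001 did. *Cd3g* was at 0 UMIs in 9 of the 13 *Il22* members of FL001 and 6 of the 8 of FL002 and reached 3 UMIs in 3 of the 13 and 0 of the 8, while it stood at a median of 21.7 and 7.54 UMIs per 10000 in *Rora*-alone members. *Trbc1* was at 0 and 49.3 CPM in *Il22* members, *Cd3d* at 16.8 and 0 CPM and *Gzma* at 50.3 and 296 CPM (its 6 UMIs of FL002 all in 1 barcode), in each case below the *Cd3g* barcodes (479 and 462, 392 and 311, 5851 and 3779.8 CPM) and below free RNA for the genes compared, which held *Gzma* at 3922 and 2141 CPM and *Cd3g* at 1880.5 and 1537 CPM. Other receptor constant regions were present. *Trbc2* was in 12 of 13 and 6 of 8 *Il22* members, at 604 and 394 CPM against 1789.8 and 1868 CPM in *Cd3g* barcodes. The gamma constant regions *Tcrg-C1* and *Tcrg-C4* stood at 889 and 1036 and at 789 and 247 CPM, against 657 and 491 and against 376 and 306 CPM in *Cd3g* barcodes.

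*Lgals3*, *Cxcr6* and the ILC3 genes were concentrated in these barcodes. *Lgals3* was in all 13 and all 8 *Il22* members, at 4867 and 4438 CPM, and those barcodes held 290 of 446 and 90 of 136 of its member UMIs. *Cxcr6* was in 12 of 13 and 8 of 8, at 839 and 1529 CPM, and the fold of both genes above is thus mainly that of this set. *Asb2* stood at 973 and 1529 CPM, *Rasl11a* at 638 and 1085 CPM and *Ltb* at 1057 and 986 CPM. *Il17f* was in 8 of 13 and 3 of 8 *Il22* members, with 31 of 33 and 11 of 11 of its member UMIs. *Ccr6*, a receptor of LTi cells, stood at 117 and 148 CPM, the latter from 3 UMIs. *Il23r*, the receptor for interleukin 23 that drives *Il22*, held 4 and 2 UMIs in *Il22* members and 0 in the other sets of either library. *Cd4*, a surface mark of many LTi cells, had 0 UMIs in the FL001 members and 2 in 1 FL002 member, which was not an *Il22* member.

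Members with *Klrd1*, *Ncr1* or *Gzmc* but no *Il22* carried NK genes beside T-cell receptor transcripts. *Cd3g* reached 3 UMIs in 10 of the 12 of FL001 and 10 of the 16 of FL002, and *Trbc1* stood at 983 and 1108 CPM. *Xcl1* was at 217 and 612 CPM, and it was in 8 of 12 and 5 of 11 members with *Klrd1*, while 2 *Il22* members of FL001 held 17 of its 42 UMIs there. *Klrb1c* was in 6 of 12 and 3 of 11 *Klrd1* members, but in FL002 these held 5 of its 14 UMIs and 1 *Il22* member held 6. *Nkg7*, a granule membrane protein, stood at 675 and 831 CPM, above the 306 and 344 CPM of *Cd3g* barcodes, and *Tyrobp*, the adaptor DAP12, at 297 and 569 CPM against 132 and 172, although without its top barcode, which held 15 of 26 UMIs, *Tyrobp* stood at 130.4 CPM in FL001. In *Rora*-alone members *Tyrobp* stood at 401 and 182 CPM, higher than in this set in FL001. *Gzmb* reached 1429 and 1851 CPM, of which 1 barcode held 56 of 125 and 79 of 127 UMIs, and without it 853 and 730.3 CPM. *Rasl11a* and *Il17f* were at 0 UMIs in this set in both libraries. *Lgals3* was absent from 4 of the 12 and 5 of the 16 barcodes.

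*Rora*-alone members carried T-lineage transcripts. *Cd3g* reached 3 UMIs in 15 of 16 and 12 of 19 of them, at 2292 and 1769.6 CPM, beside 3145 and 2909 CPM in *Cd3g* barcodes. *Tcf7*, a T-lineage and innate lymphoid factor, stood at 361 and 566 CPM against 293 and 411. *Cpa3* was at 248 and 429 CPM and at 0 UMIs in *Il22* members, but 1 barcode held 25 of the 31 UMIs of FL001, and without it the level was 51.9 CPM. These were also the deepest members, with median depths of 7760.5 and 5307 UMIs against 4613 and 2492.5 in *Il22* members, and the part of depth in their entering the gate was not tested. The libraries differed within this set: *Lgals3* was at 0 in 6 of 16 barcodes of FL001 and in 18 of 19 of FL002, for 978 and 63.9 CPM. A single barcode held 78 of the 122 UMIs of FL001, and without it the level was 381 CPM, while the 7 UMIs of FL002 were all in 1 barcode. In the wider comparison, leaving these barcodes out raised the genes higher than in the others from 65 to 136 and those lower from 21 to 55, with 58 of the 65 and 20 of the 21 among them.

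**Figure D3:**
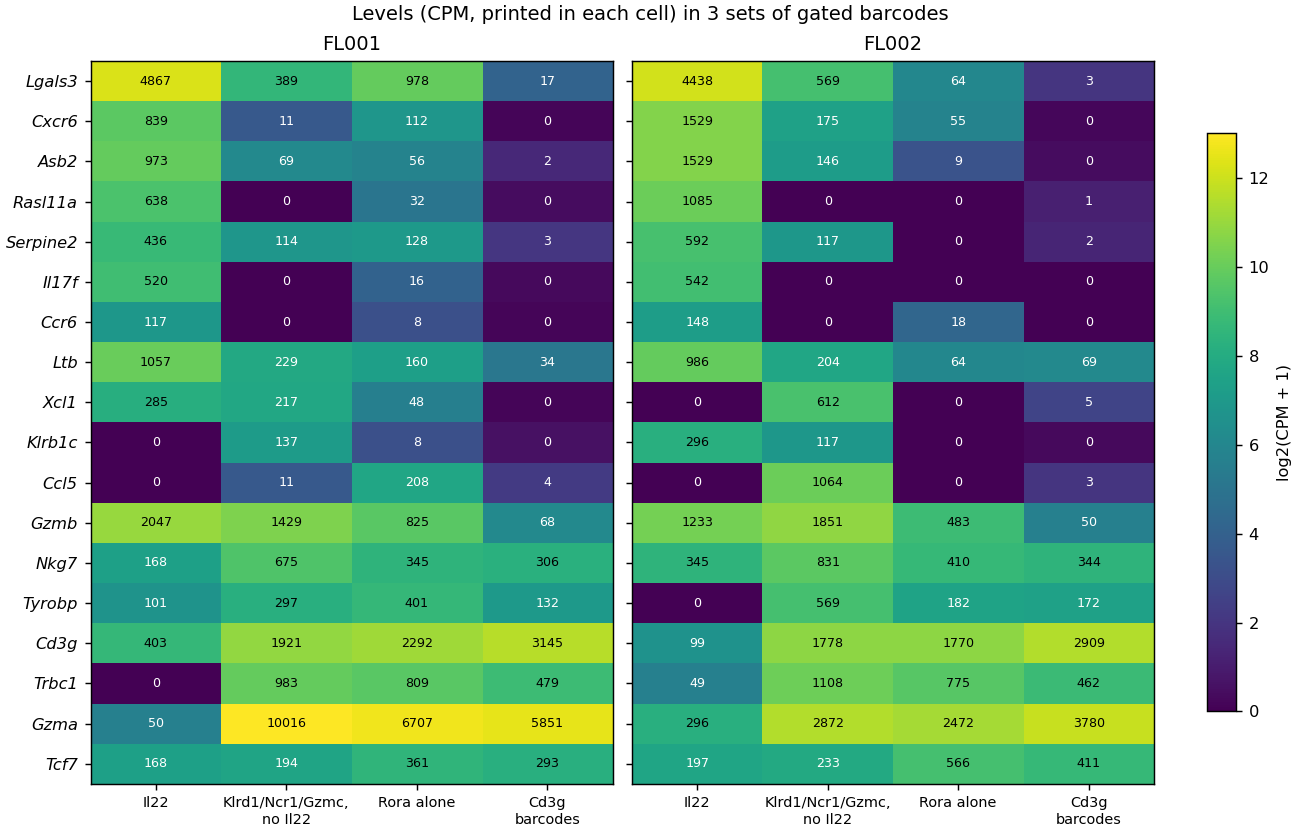
Levels in CPM (printed in each cell as a whole number, colour on a log2 scale after adding 1) of 18 genes in *Il22* members, in members with *Klrd1*, *Ncr1* or *Gzmc* and no *Il22*, in *Rora*-alone members and in *Cd3g* barcodes, for FL001 and FL002. *Lgals3*, *Cxcr6*, *Asb2*, *Rasl11a* and *Il17f* are brightest in the *Il22* column, and *Cd3g*, *Trbc1* and *Gzma* in the other columns.

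**Figure D4:**
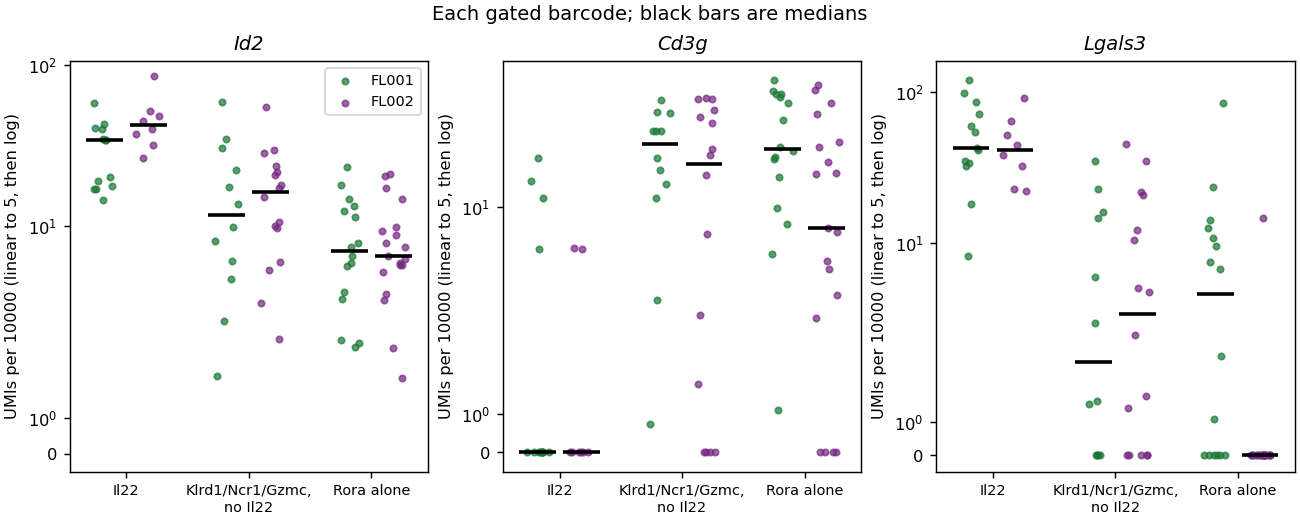
UMIs per 10000 of *Id2*, *Cd3g* and *Lgals3* in each of the 84 members, by set and library (axis linear to 5, then log, points spread sideways at random), with black bars at the medians. *Cd3g* lies at 0 for most *Il22* members, and *Lgals3* lies at 0 for 18 of the 19 *Rora*-alone members of FL002.

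At the threshold, members just inside had exactly 3 *Id2* UMIs and 1 UMI of the summed genes, 5 in FL001 and 8 in FL002. Just outside were 13 and 12 barcodes with 2 *Id2* UMIs and at least 1 of the summed genes, and 132 and 162 with at least 3 *Id2* UMIs and none of them, all within the limits for progenitor and granule genes. *Lgals3* stood at 119 and 0 CPM just inside, 167 and 27.2 CPM in those with 2 *Id2* UMIs and 11.2 and 26.5 CPM in those without the summed genes. *Cxcr6* stood at 0 and 121 CPM just inside and 65.0 and 0 CPM with 2 *Id2* UMIs, and had 0 UMIs in those without the summed genes. *Cd3g* reached 3 UMIs in 4 and 5 of the barcodes just inside, in 9 and 9 of those with 2 *Id2* UMIs and in 117 and 119 of those without the summed genes. The gate held most barcodes with several *Il22* or *Cxcr6* UMIs and smaller shares of those with *Klrd1* or *Lgals3*. Of kept barcodes with at least 2 *Il22* UMIs, 11 of 12 in FL001 and 7 of 7 in FL002 were members, and with at least 2 *Cxcr6* UMIs 11 of 13 and 11 of 11. With at least 2 *Xcl1* UMIs 8 of 8 and 5 of 7 were members, with 2 *Gzmc* UMIs 7 of 9 and 5 of 10, and with 2 *Klrd1* UMIs 7 of 14 and 6 of 10. For *Lgals3* at 3 UMIs or more the gate held 24 of 44 and 15 of 27.

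Of 1948 genes with at least 100 CPM in the members of either library, 23 were at least 2-fold higher in FL001 members (1.18%) and 32 at least 2-fold higher in FL002 members (1.64%). *Scand1*, *Tgfb1* and *Fos* were 7.62-fold, 5.35-fold and 4.39-fold higher in FL002 members, and the other kept barcodes also stood at 10.1 and 185, 13.7 and 156 and 163 and 288 CPM, so all 3 were higher in FL002 outside the gate as well. *Ccdc184* was different, at 7.36 and 111 CPM in members, 0 and 0.0474 in the others, with 22 UMIs over 7 FL002 members. The chemokine *Ccl4* was 5.53-fold higher in FL002 through 1 barcode with 17 of 22 UMIs. Higher in FL001 were *Prss2* (4.24-fold, 34 of 35 UMIs in 1 barcode), *Mdm4*, *Gm10116*, *Gzma* (2.63-fold) and *Tmem176b*, the last a membrane protein found in ILC3. The mix of sets differed between the libraries too, and its part in these values was not tested.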

How the data were processed

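The 2 libraries of 10X Chromium 3' single-cell RNA were labelled as 1 group. Per the study's methods the authors sequenced them on an Illumina NextSeq and made the deposited matrices with CellRanger, whose version is not given in the sources used here. The deposited counts are UMIs, not normalized, for each gene in every barcode. The submitters' processing notes name the build mm9, but the gene identifiers include later models, so gene overlaps come from GENCODE on GRCm38, matched by Ensembl identifier, and promoters from RefSeq on GRCm38.p6.

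UMIs were summed over the barcodes of a group and divided by their total (CPM), with 95% exact Poisson intervals, and shares with 95% exact binomial intervals, neither of which covers more than counting error. Folds add 20 CPM to both levels. Genes needed 50 CPM in members or the comparison group in each library and counted as higher or lower at 2-fold in both. As the members were chosen on these UMIs, no test was run over libraries or over cells. The gate, members and 17 gene lists were chosen with earlier results of these data known. Named genes were the 15 largest folds up and 10 down against other kept barcodes, the 10 up and 10 down against *Cd3g* barcodes by the lower fold of the libraries, the 5 largest ratios each way between libraries, and list genes that are abundant or define a list. Some genes that this rule or the lists name are not reported here. Doublets were scored with Scrublet as run in scanpy 1.11.5 at an expected rate of 0.06 and not removed. The computation used Python 3.11.15, numpy 2.4.6, scipy 1.17.1 and pandas 2.3.3, and was tested on simulated data. The simulated counts had no variation between barcodes, so they do not cover genes whose UMIs lie mainly in 1 barcode. Alternatives changed the added CPM, the level minimum, cell weighting, depth, doublet removal and the gate.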

Additional observations from a re-analysis of the deposited data

How the results depend on the processing

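In each of 585 combinations of a named gene, a comparison and a setting that were run, the fold kept its direction. The log2 fold averaged over the libraries moved by no more than its standard deviation over the 2 libraries in 254, and by more in 331. The named genes were chosen as at least 2-fold in both libraries. Changing the added CPM or using 1 library alone thus could not reverse them. Changes of the level minimum and leaving out the top barcode were not among these combinations. Counts of genes are given as higher and lower against the other kept barcodes, then higher and lower against *Cd3g* barcodes, and were 65, 21, 62 and 18 as reported. With 5 CPM added they were 98, 31, 85 and 32, with 50 CPM added 42, 6, 40 and 4, and with a level minimum of 100 CPM 40, 12, 39 and 9. Weighting barcodes equally gave 126, 42, 118 and 61, and thinning to 1500 UMIs gave 119, 63, 120 and 82. Barcodes of at least 2500 UMIs gave 53, 19, 46 and 9. A gate of 2 *Id2* UMIs gave 39, 12, 37 and 4, one of 4 gave 105, 42, 101 and 40, and a minimum of 2 for the summed genes gave 127, 63, 116 and 75. Leaving out members with 3 *Cd3g* UMIs gave 186, 95, 188 and 105, with 55 of the 65 genes still higher than in the others. Against the others, the log2 fold averaged over the libraries then fell from 3.23 to 2.27 for *Xcl1*. It fell from 3.25 to 0.917, under 2-fold, for *Ccl5* and from 3.85 to 3.68 for *Gzmb*. For the rest of the 15 largest folds it rose.

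Chosen after seeing the data, leaving out *Rora*-alone members gave 136, 55, 128 and 63, and leaving out, for each gene and library, the member with the most UMIs gave 44 and 40 higher, 43 of them among the 65 and 39 among the 62. The levels without 1 barcode given for sets of members and for marker lists were also chosen after seeing the data. With 1 library alone the counts ran from 113 to 133, 42 to 69, 115 to 130 and 47 to 60. The share of members, 1.43%, was 1.85% with 2 *Id2* UMIs, 1.09% with 4, 0.951% with 2 summed UMIs, 0.582% without *Cd3g* members, 0.837% without *Rora*-alone members and 1.05% to 2.29% in 1 library alone. The median depth of members relative to the others, averaged over the libraries at 0.756, was 0.604 without *Cd3g* members and 0.595 without *Rora*-alone members, and ran from 0.661 to 0.851 in 1 library alone. The cause of these shifts was not tested beyond what each setting leaves out. Folds were computed within each library and are thus paired by library. No paired test was run, because the members were chosen on these UMIs.

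Depth limits the members: 41 and 43 barcodes hold 271849 and 198511 UMIs. So 3 counts, the limit used for a gene at 0 UMIs, correspond to 11.0 and 15.1 CPM. Levels near 50 CPM rest on few UMIs, and 1 barcode can set them. Time points per library are not known, so differences between libraries cannot be told apart from time.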
